A study of Arabidopsis thaliana with 12 samples.

Results

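The genes described here are 50 nuclear genes of the photosynthetic light reactions in Arabidopsis thaliana: 14 genes of the antenna of photosystem II (LHCB), 6 of the antenna of photosystem I (LHCA), 10 of photosystem II subunits (PSB), 12 of photosystem I subunits (PSA), and 8 of electron carriers and ATP synthase (PETC, PETE1, PETE2, FD2, FNR1, FNR2, ATPC1 and ATPD). They were taken by locus from a list of nuclear genes for these complexes, by a rule that uses no measured value, although earlier results of these data were known when the list was drawn up. All 50 were found among the 33602 genes of the table and passed the filter on low values. RNA came from whole rosettes of soil-grown plants aged 3 weeks, kept in 16 h of light and 8 h of dark, with 3 biological replicates of each of 4 genotypes. The ceh1/eds16 plants carried both mutations, the ceh1 plants only the first and the eds16 plants only the second, and Col-0 was the wild-type parent. ceh1 is a mutation of HDS, the gene of a plastid enzyme of isoprenoid synthesis, whose substrate methylerythritol cyclodiphosphate (MEcPP) builds up in the mutant. eds16 is a loss of ICS1, the isochorismate synthase gene on which most stress-induced salicylic acid depends.

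In the light reactions, antenna proteins that bind chlorophyll pass absorbed energy to the reaction centres of the photosystems. Photosystem II splits water with the help of lumenal subunits, and the cytochrome b6f complex and plastocyanin carry electrons on to photosystem I. Ferredoxin and its NADP reductase (FNR) deliver them to NADP, while ATP synthase uses the proton gradient. The reaction centre proteins themselves are encoded in the chloroplast genome, whereas the antenna and most peripheral subunits come from nuclear genes whose transcription responds to light, the clock and signals from the plastid. The comparisons ask how these transcripts stand in plants with the ceh1 mutation, with and without ICS1, and whether loss of ICS1 alone changes them.

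Libraries held 4986863 to 18081979 reads in genes, and all levels are read counts divided by the size factor that the authors gave each library, called normalized counts. ICS1, the target of eds16, stood at 21.0 ± 7.06 in ceh1/eds16 against 15.2 ± 4.47 in eds16, and at 666 ± 31.2 in ceh1 against 245 ± 27.6 in Col-0 (SD, n = 3 each). It did not exceed 28.3 in the 6 libraries with eds16 and was at least 224 in the other 6. HDS, which is mutated in ceh1, averaged 2338 ± 274 in ceh1/eds16 against 3683 ± 287 in eds16, and 1589 ± 240.0 in ceh1 against 3765 ± 159 in Col-0. The 4 leaf blade markers (RBCS1A, RCA, CA1 and GLDP1) were all present and summed to 86972 to 123132 in ceh1/eds16, 68823 to 77952 in ceh1, 169140.0 to 174503 in eds16 and 167208 to 184123 in Col-0. All 4 were called lower in ceh1 against Col-0 (median log2 fold change -1.56, 25.0% of all tested genes lower). In ceh1/eds16 against eds16, 3 of the 4 were called lower (-0.59, 20.2% of all genes). For 2 of the 4 this change was called higher than that in ceh1 against Col-0 (3.08% of all genes). Sums of the vascular, guard cell, root and flower markers also lay apart with and without the ceh1 mutation, in both backgrounds. The 5 vascular markers summed to 649 to 751 in ceh1/eds16 against 1289.7 to 1622 in eds16, and 664 to 897 in ceh1 against 1562 to 1842 in Col-0. The 5 guard cell markers summed to 537 to 591 against 664 to 734 and 426 to 457 against 623 to 811 in these pairs. Single guard cell markers did not all move alike: 1 was called lower and 1 higher in ceh1/eds16 against eds16. In ceh1 against Col-0, 3 of the 5 were called lower and 0 higher. The 3 root markers summed to 713 to 885 against 187 to 222 and 734 to 952 against 116 to 191. Only 1 of these 3 passed the filter on low values. The 4 flower markers summed to 34.5 to 59.6 in ceh1/eds16 against 138 to 169.8 in eds16, and 15.0 to 47.4 in ceh1 against 82.4 to 112 in Col-0, and all 4 were called lower in both comparisons (median log2 fold changes -2.17 and -1.75). The 3 trichome markers summed to 88.5 to 91.8 against 127 to 131 and 82.8 to 96.7 against 96.3 to 116 in the same pairs, with overlap between ceh1 and Col-0. Of the 2 seed markers 1 was at 0 throughout, and the sum did not exceed 3.24. The part of these tissue differences in the results was not tested, and in whole rosettes fewer cells of a type and less RNA per cell cannot be told apart. One library, ceh1/eds16 replicate 3, stood apart: its squared differences from its sister libraries were 25.8 and 26.3 times those of read sampling, against 2.73 to 8.95 times for all other pairs within a genotype. It had the highest value of its genotype for 48 of the 50 genes, so results that involve ceh1/eds16 are also given without it where a call changes.

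Transcripts of the light reactions were lower almost throughout in plants with the ceh1 mutation. In ceh1 against Col-0, 47 of the 50 genes fell and 0 rose (limma, adjusted p under 0.05), where 25.0% of the 18289 tested genes fell, 25.2% rose and 50.2% were called in either direction. With an unadjusted p under 0.05, 48 of the 50 passed (56.0% of all genes), all lower, and edgeR called 47 lower and 0 higher and DESeq2 48 lower and 0 higher. PSBR, PETE1 and FNR2 were the genes that limma did not call. In size, 25 of the 50 fell at least 2-fold, as did 7.05% of all genes, and the median log2 fold change of the 50 was -1.02, beside 0.01 for all tested genes. All 3 ceh1 libraries lay below all 3 Col-0 libraries for 48 genes and above for 0, beside 30.8% and 31.5% of all genes. Log2 fold changes ran from -2.72 for LHCB2.3 to -0.22 for PETE1.

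The direction was the same without ICS1. In ceh1/eds16 against eds16, 44 of the 50 genes fell (limma, adjusted p under 0.05), where 20.2% of all tested genes fell, 22.1% rose and 42.3% were called in either direction. Of the 44, 21 fell at least 2-fold (7.49% of all genes), and the median log2 fold change of the 50 was -0.90, beside 0.01 for all genes. No gene of the 50 rose by limma or edgeR. At an unadjusted p under 0.05, 47 passed (49.6% of all genes), FNR2 alone of them higher, and DESeq2 called FNR2 higher. LHCA5, PSBR, PSAE2, PETC, FNR1 and FNR2 were not called by limma. The ceh1/eds16 libraries all lay below the eds16 libraries for 37 genes (23.7% of all genes) and above for 1, FNR2 (25.4% of all genes). Without ceh1/eds16 replicate 3 the count that fell was 48 (21.2% of all genes), with LHCA5 (log2 fold change -0.37, adjusted p = 0.00790), PSAE2 (-0.46, 0.00384), PETC (-0.48, 0.00129) and FNR1 (-0.30, 0.0358) also past the threshold.

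In total 43 of the 50 genes fell in both comparisons, as did 14.6% of all tested genes. The comparisons share no library, but the common fit gives both the same estimate of spread for a gene. The 43 genes were all 14 antenna genes of photosystem II, 5 of 6 of photosystem I, 9 of 10 photosystem II subunits and 11 of 12 photosystem I subunits, but 4 of the 8 electron transport and ATP synthase genes. Across the 50 genes the log2 fold changes of both comparisons had a Pearson's r of 0.84 and a Spearman's rho of 0.69, or 0.72 and 0.67 without LHCB2.3, as a description over genes that are not independent.

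**Figure D1:**
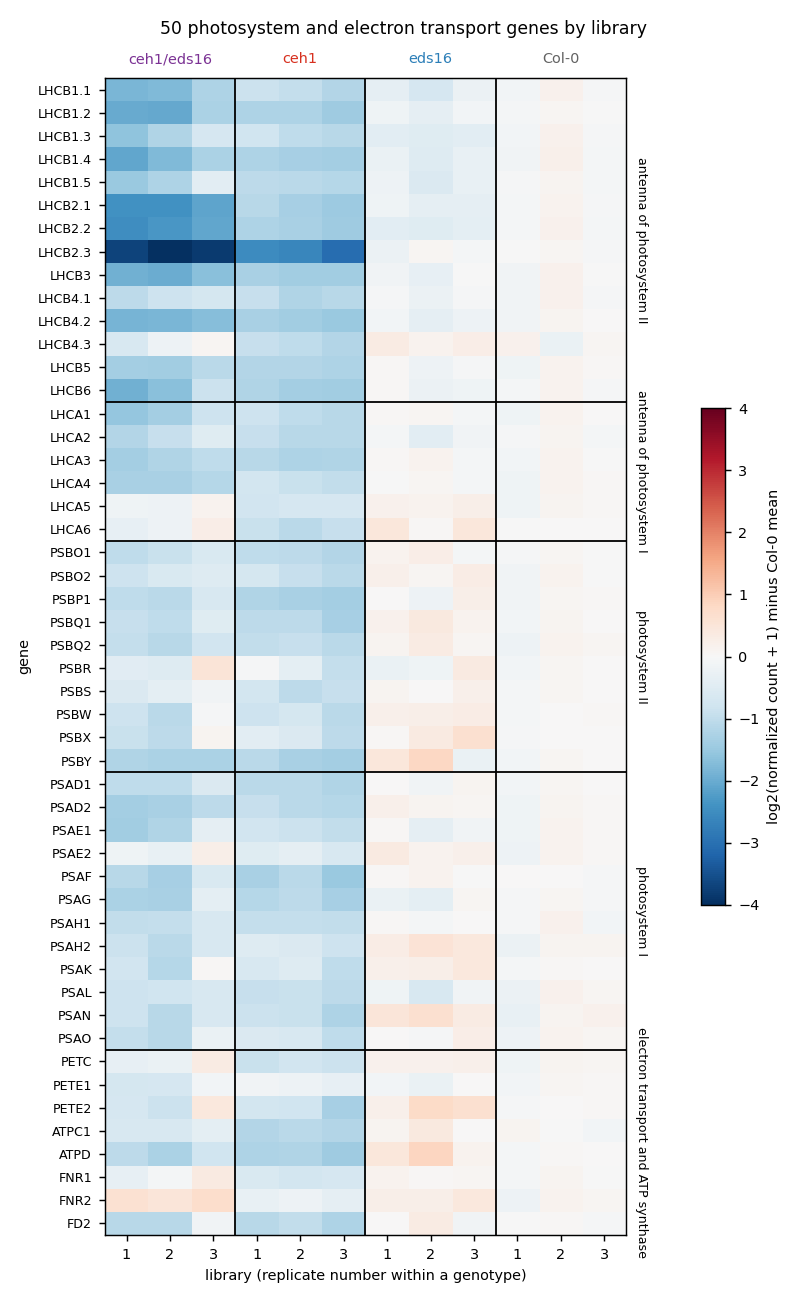
Levels of the 50 genes in each of the 12 libraries, as log2(normalized count + 1) minus the Col-0 mean of the gene, with genes in rows by class and libraries in columns by genotype. Blue is below and red above the Col-0 mean: nearly all genes are blue in the 6 libraries with the ceh1 mutation, LHCB2.3 is the darkest, and FNR2 is the gene above its Col-0 mean in all 3 ceh1/eds16 libraries.

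As a share of all reads in genes, the 50 genes together took 6.51, 6.55 and 8.57% in ceh1/eds16 against 13.4, 12.9 and 13.5% in eds16, and 8.13, 7.78 and 7.04% in ceh1 against 12.5, 14.4 and 13.8% in Col-0. All 6 libraries with the ceh1 mutation lay below all 6 without it. The values of these genes, like those of all genes, depend in part on how libraries are scaled. When each library was set to the same total in place of the authors' size factors, a scaling chosen after seeing the data, the median of all genes moved to 0.24 in ceh1 against Col-0 and 0.12 in ceh1/eds16 against eds16. Under it 45 and 40 of the 50 genes fell (14.6% and 15.4% of all genes). The split of all called genes in ceh1 against Col-0 was then 2674 lower and 6882 higher, beside 4566 lower and 4617 higher with the size factors. In ceh1/eds16 against eds16 it was 2825 lower and 5033 higher, beside 3700 lower and 4036 higher.

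The antenna of photosystem II had the lowest class medians, -1.29 in ceh1 against Col-0 and -1.35 in ceh1/eds16 against eds16 on the log2 scale. All 14 of its genes fell in both comparisons. LHCB1, LHCB2 and LHCB3 form the trimers of the main antenna. LHCB2.3 (AT3G27690), on build TAIR10.1 at chr3:10255906-10257489, is a protein-coding gene for LHCB2, the protein that is phosphorylated when antenna moves between the photosystems. It had 1382, 1313 and 969 normalized counts in ceh1, against 7938, 8357 and 7674 in Col-0. In the eds16 background it had 613, 487 and 555 in ceh1/eds16, against 6841, 8356 and 7535 in eds16. All 6 libraries with the ceh1 mutation were far below the other 6. LHCB2.3 fell 6.61-fold in ceh1 (log2 fold change -2.72 ± 0.14 SE, adjusted p = 2.80e-10) and 13.7-fold in ceh1/eds16 (log2 fold change -3.78 ± 0.14 SE, adjusted p = 6.11e-12), the largest falls among the 50. The annotated gene overlaps its neighbour AT3G27700 by 595 bases. That neighbour averaged 268 in ceh1/eds16 against 277 in eds16, and 222 in ceh1 against 323 in Col-0. The strand setting of the counting is not given in the sources used here, so reads of overlapping genes cannot be told apart.

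The sisters LHCB2.1 (AT2G05100) and LHCB2.2 (AT2G05070) lie on chromosome 2 and moved alike. LHCB2.1 had 4021, 4077 and 5029 in ceh1/eds16 against 19318, 16851 and 16895 in eds16, and 10161, 8691 and 7914 in ceh1 against 20602, 23921 and 20887 in Col-0. LHCB2.2 had 3553, 3955 and 4733 in ceh1/eds16 against 14713, 14091 and 15209 in eds16, and 8382, 8080.1 and 7398 in ceh1 against 18618, 22137 and 18832 in Col-0. In both genes ceh1/eds16 was lowest, then ceh1, then eds16, with Col-0 highest, and none of the 4 sets of libraries overlapped. LHCB2.1 fell by 1.29 ± 0.14 SE on the log2 scale in ceh1 against Col-0 (adjusted p = 9.03e-07) and by 2.02 ± 0.14 SE in ceh1/eds16 against eds16 (adjusted p = 3.22e-09). LHCB2.2 fell by 1.32 ± 0.13 SE (adjusted p = 4.25e-07) and 1.86 ± 0.13 SE (adjusted p = 5.02e-09) in the same comparisons. Of the stretches of 50 bases in the LHCB2.1 transcript 20.2% occur in LHCB2.2 as well, so some reads may have been split between them.

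The promoters of LHCB2.1 and LHCB2.2 are shown because the pair moved together, and those of PETC and FNR2 because these were higher, and the LHCB2 genes lower, in ceh1/eds16 than in ceh1. Each is the 250 bases before the annotated start of the gene, from the RefSeq genome of build TAIR10.1, read 5′ to 3′ on the strand of the gene: chr2:1824481-1824730, minus strand for LHCB2.1, chr2:1800473-1800722, minus strand for LHCB2.2, chr4:1439896-1440145, plus strand for PETC and chr1:6942375-6942624, plus strand for FNR2. Capitals mark CCAATC, a motif of GLK transcription factors, which activate antenna genes, and the I-box GATAAG of light-responsive promoters, each on either strand.
LHCB2.1: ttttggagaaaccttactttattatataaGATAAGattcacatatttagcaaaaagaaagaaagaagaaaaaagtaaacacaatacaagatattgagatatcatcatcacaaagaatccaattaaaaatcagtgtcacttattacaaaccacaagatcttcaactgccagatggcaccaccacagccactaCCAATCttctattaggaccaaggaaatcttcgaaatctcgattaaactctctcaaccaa
LHCB2.2: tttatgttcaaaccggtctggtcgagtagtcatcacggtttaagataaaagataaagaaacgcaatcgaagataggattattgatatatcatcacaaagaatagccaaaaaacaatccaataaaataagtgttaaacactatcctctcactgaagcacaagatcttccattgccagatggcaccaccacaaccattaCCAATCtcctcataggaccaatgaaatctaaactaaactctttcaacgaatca
PETC: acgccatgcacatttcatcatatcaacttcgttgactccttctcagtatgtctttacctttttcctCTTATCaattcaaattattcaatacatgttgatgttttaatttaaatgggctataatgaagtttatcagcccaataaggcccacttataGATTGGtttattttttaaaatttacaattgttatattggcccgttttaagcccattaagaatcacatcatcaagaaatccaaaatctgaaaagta
FNR2: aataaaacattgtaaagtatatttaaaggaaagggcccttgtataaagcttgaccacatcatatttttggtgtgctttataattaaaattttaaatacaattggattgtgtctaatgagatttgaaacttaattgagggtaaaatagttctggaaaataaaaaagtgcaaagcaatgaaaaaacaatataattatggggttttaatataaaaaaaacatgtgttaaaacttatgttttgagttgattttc

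CCAATC lies 59 bases before the start of LHCB2.1, 53 bases before that of LHCB2.2 and, on the other strand, 95 bases before that of PETC. The I-box lies 221 bases before the start of LHCB2.1 and, on the other strand, 184 bases before that of PETC, and FNR2 has neither motif in this window. LHCB2.1 and LHCB2.2 share an identical run of 20 bases that starts 86 and 80 bases before their starts, while the longest run shared by any other pair of the 4 is 10 bases. LHCA6 and LHCB4.3, which rose more than PETC in ceh1/eds16 against ceh1, are not printed, and neither motif is in their promoters. LHCB2.3 has no annotated 5′ UTR, so its promoter was not read. Of the other 49 promoters, 13 (26.5%) hold CCAATC, as do 10.2% of those of 23192 protein-coding genes. They belong to 6 of 13 photosystem II antenna genes (LHCB1.3, LHCB1.5, LHCB2.1, LHCB2.2, LHCB4.1 and LHCB4.2), 3 of 6 photosystem I antenna genes (LHCA1, LHCA3 and LHCA4), 1 of 10 photosystem II genes (PSBQ2), 0 of 12 photosystem I genes, and 3 of 8 electron transport and ATP synthase genes (PETC, PETE2 and ATPD). The letters of CCAATC include those of the CCAAT box, so the search does not separate them. GATAAG was in 24.5% of the 49 and 12.3% of all promoters, and the G-box CACGTG in 16.3% and 7.12%. The clock-related morning element AAAAATCT was in 10.2% and 6.82%, the evening element AAAATATCT in 4.08% and 2.51%, and the W-box core TTGAC of defence genes in 34.7% and 45.5%, on both strands in each case. A match describes letters in the window and is not a measured site.

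Among the other trimer genes, LHCB3 (AT5G54270), the third trimer protein, had 17239.8, 16286 and 16238 in ceh1, against 37988, 47252 and 42213 in Col-0. In the eds16 background it had 11088, 10761 and 13157 in ceh1/eds16, against 38319, 33366 and 41433 in eds16. Each set of libraries with the ceh1 mutation lay below its partner (log2 fold change -1.35 ± 0.14 SE, adjusted p = 7.70e-07, in the first; log2 fold change -1.69 ± 0.14 SE, adjusted p = 3.92e-08, in the second). The 5 LHCB1 genes encode the most abundant antenna protein, and all fell in both comparisons. LHCB1.3 (AT1G29930), the least changed gene of the class in ceh1, had 58885, 50646 and 47608 in ceh1, against 95053, 116834 and 99032 in Col-0. Plants with eds16 gave 34142, 45239 and 64144 in ceh1/eds16, against 77634, 74539.9 and 77295 in eds16. In both pairs the groups were apart (log2 fold change -0.98 ± 0.20 SE, adjusted p = 0.000592, in the first; log2 fold change -0.72 ± 0.20 SE, adjusted p = 0.00676, in the second). Within ceh1/eds16 its libraries were widely spread, with replicate 3 highest, and the second call was lost without the filter on low values (adjusted p = 0.0841). LHCB1.2 had 11165, 10735 and 18538 in ceh1/eds16 against 39289, 34993 and 41251 in eds16, and 19144, 19095 and 16572 in ceh1 against 42642, 47026 and 44651 in Col-0. LHCB1.4 had 8792, 10733 and 15361 in ceh1/eds16 against 30607, 25648 and 29782 in eds16, and 15834, 14805 and 14439 in ceh1 against 33262, 42659.5 and 35296 in Col-0. Both genes were apart in both pairs, and fell 2.94-fold and 2.53-fold in ceh1/eds16 and 2.45-fold and 2.45-fold in ceh1. LHCB1.5 (AT2G34420) had 24575, 28746 and 50866 in ceh1/eds16 against 58890.5, 45968 and 55673 in eds16, and 33094, 32361 and 30831 in ceh1 against 65681, 73882 and 64876 in Col-0. There 1 ceh1/eds16 library, replicate 3, lay inside the eds16 range. Its fall in ceh1/eds16 (log2 fold change -0.69 ± 0.21 SE, adjusted p = 0.0140) was lost when ceh1/eds16 replicate 1 or 2 or eds16 replicate 1 was left out, down to a log2 fold change of -0.48 (adjusted p up to 0.0809), and also without the filter (adjusted p = 0.0832) or in a fit of only the 2 groups. The LHCB1 coding sequences are 86.9 to 96.4% identical to each other, so reads may be split among the 5 and differences between them are uncertain.

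Other antenna proteins are single units that link the trimers to the photosystem II core. LHCB4.2 (AT3G08940), a gene of the CP29 protein, had 8189, 7728 and 7206 in ceh1, against 18313, 21869.5 and 20219 in Col-0. Without ICS1 the values were 5536, 5702 and 6153 in ceh1/eds16, against 18618, 15513 and 17319 in eds16. No library with the ceh1 mutation reached its partner group (log2 fold change -1.38 ± 0.12 SE, adjusted p = 1.30e-07, in the first; log2 fold change -1.56 ± 0.12 SE, adjusted p = 2.08e-08, in the second). Its sister LHCB4.1 had 9883, 11411 and 12509 in ceh1/eds16 against 19732, 17358 and 19649 in eds16, and 10684, 8849 and 9400.2 in ceh1 against 18748, 23022 and 19836 in Col-0, with no overlap in either pair. It fell by 1.09 ± 0.14 SE on the log2 scale in ceh1 against Col-0 and by 0.75 ± 0.14 SE in ceh1/eds16 against eds16. LHCB5 (AT4G10340), the CP26 gene, fell 2.298-fold in ceh1/eds16 and 2.27-fold in ceh1. LHCB6 (AT1G15820), the CP24 gene, fell 2.58-fold and 2.51-fold. LHCB4.3 (AT2G40100), the third and least expressed CP29 gene, had 128, 174 and 215 in ceh1/eds16 against 252, 225 and 243 in eds16, and 107, 99.4 and 88.7 in ceh1 against 228, 169.5 and 214 in Col-0. It was lowest in ceh1, whose 3 libraries lay below the other 9. It fell in ceh1 (log2 fold change -1.04 ± 0.17 SE, adjusted p = 0.000127), and its fall in ceh1/eds16 (log2 fold change -0.51 ± 0.17 SE, adjusted p = 0.0268) was lost when ceh1/eds16 replicate 1 or eds16 replicate 1 or 3 was left out (-0.68 to -0.31, adjusted p up to 0.156), at equal library totals (-0.40, adjusted p = 0.0665) and in a fit of only the 2 groups.

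**Figure D2:**
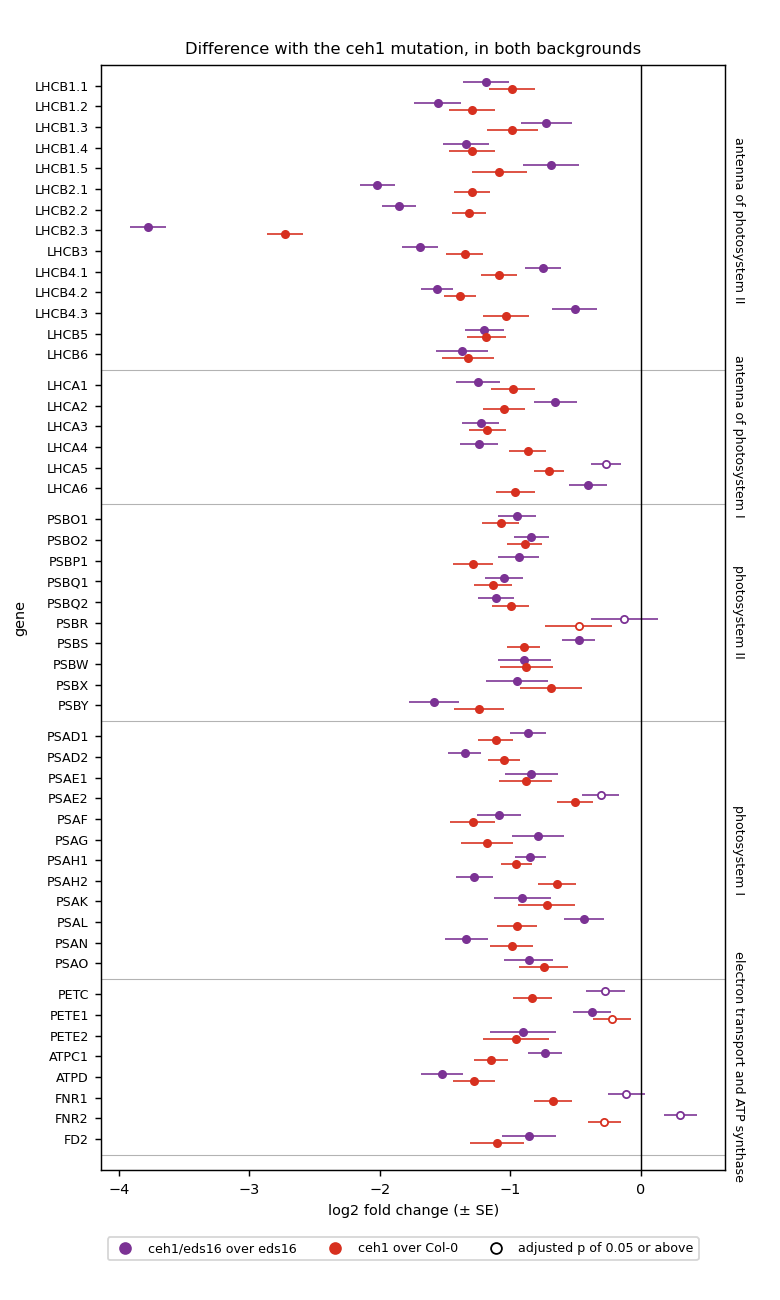
Log2 fold change of each of the 50 genes (points, bars ± SE, from limma) in ceh1/eds16 over eds16 and in ceh1 over Col-0, by class. Open points did not pass an adjusted p of 0.05, 6 in the first comparison and 3 in the second. LHCB2.3 lies farthest left in both, and FNR2 in ceh1/eds16 over eds16 is the point right of 0.

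In the antenna of photosystem I, all 6 genes fell in ceh1 against Col-0 (class median -0.97) and 5 of 6 in ceh1/eds16 against eds16 (-0.94). LHCA1 to LHCA4 form the antenna belt of the photosystem. LHCA3 (AT1G61520), a belt protein, had 23742, 21701 and 22187 in ceh1, against 47165, 55590.0 and 50422 in Col-0. The counts in the eds16 background were 19768, 22204 and 25115 in ceh1/eds16, against 52665, 55911 and 48224 in eds16. The groups did not overlap in either pair (log2 fold change -1.18 ± 0.14 SE, adjusted p = 3.73e-06, in the first; log2 fold change -1.23 ± 0.14 SE, adjusted p = 1.92e-06, in the second). LHCA2 (AT3G61470), its partner in the belt, had 12717, 11136 and 11346 in ceh1, against 23404, 26373 and 23061 in Col-0. Where ICS1 was lost it had 10704, 12734 and 17321 in ceh1/eds16, against 23044, 18132 and 22058 in eds16. All 3 libraries with the ceh1 mutation were the lower ones in each pair (log2 fold change -1.05 ± 0.16 SE, adjusted p = 5.88e-05, in the first; log2 fold change -0.65 ± 0.16 SE, adjusted p = 0.00369, in the second). LHCA1 (AT3G54890), from the other pair of the belt, had 17975, 15783 and 14896 in ceh1, against 28543, 35567 and 32132 in Col-0. On the eds16 background the gene had 10962, 12472 and 18089.8 in ceh1/eds16, against 33055, 33519 and 30138 in eds16. Both pairs were fully separated (log2 fold change -0.98 ± 0.17 SE, adjusted p = 0.000153, in the first; log2 fold change -1.25 ± 0.17 SE, adjusted p = 1.21e-05, in the second).

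LHCA5 and LHCA6 are minor antenna proteins known to join photosystem I to the NADH dehydrogenase-like complex. LHCA5 (AT1G45474) had 909.8, 893 and 1119 in ceh1/eds16 against 1154, 1135 and 1212 in eds16, and 604, 641 and 635 in ceh1 against 913, 1096 and 1061 in Col-0. LHCA6 (AT1G19150) had 430.4, 467 and 647 in ceh1/eds16 against 735, 561 and 733 in eds16, and 289.5, 258 and 282 in ceh1 against 531, 542 and 545 in Col-0. For both genes the 3 ceh1 libraries were the lowest of all 12. LHCA5 fell in ceh1 against Col-0 (log2 fold change -0.70 ± 0.12 SE, adjusted p = 9.78e-05), while ceh1/eds16 against eds16 gave -0.27 ± 0.12 SE (adjusted p = 0.0722). LHCA6 fell in ceh1 against Col-0 (log2 fold change -0.96 ± 0.15 SE, adjusted p = 5.14e-05) and in ceh1/eds16 against eds16 (log2 fold change -0.41 ± 0.15 SE, adjusted p = 0.0363). The second call was lost when ceh1/eds16 replicate 1 or 2 or eds16 replicate 1 or 3 was left out (-0.58 to -0.29, adjusted p up to 0.164), at equal library totals (-0.29, adjusted p = 0.1), without the trend in variance and in a fit of only the 2 groups.

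Of the 10 photosystem II subunit genes, 9 fell in each comparison (class medians -0.95 in ceh1 against Col-0 and -0.94 in ceh1/eds16 against eds16), and PSBR passed in neither. Genes of the oxygen-evolving complex, the lumenal subunits around the site of water splitting, fell in both. PSBP1 (AT1G06680), for the subunit that helps to retain calcium and chloride, had 17750.0, 16795 and 15946 in ceh1, against 37327, 43741 and 42410.2 in Col-0. In the eds16 background it had 20158, 19643 and 26412 in ceh1/eds16, against 41907, 35947 and 48666 in eds16. Each set of libraries with the ceh1 mutation lay below its partner (log2 fold change -1.29 ± 0.16 SE, adjusted p = 4.09e-06, in the first; log2 fold change -0.94 ± 0.16 SE, adjusted p = 0.000107, in the second). PSBQ1 (AT4G21280), for its small companion, had 5730.1, 5794 and 4745 in ceh1, against 11006, 12736 and 11917 in Col-0. Plants with eds16 gave 6243, 5838 and 8501 in ceh1/eds16, against 13416, 15518 and 13194 in eds16. In both pairs the groups were apart (log2 fold change -1.14 ± 0.15 SE, adjusted p = 8.72e-06, in the first; log2 fold change -1.05 ± 0.15 SE, adjusted p = 1.78e-05, in the second). PSBO1, of the manganese-stabilising subunit, had 19716, 21379 and 25832 in ceh1/eds16 against 43792, 47424 and 37669 in eds16, and 19719.7, 19377 and 17559 in ceh1 against 38222, 41860.2 and 39266 in Col-0. PSBO2 had 4176, 4877 and 5236 in ceh1/eds16 against 8604, 7829 and 9078 in eds16, and 4560.5, 3939.7 and 3545 in ceh1 against 6726, 8229 and 7345 in Col-0, and PSBQ2 14324, 12975 and 16440.0 in ceh1/eds16 against 30282, 34731 and 29251 in eds16, and 14089.8, 14769 and 13127 in ceh1 against 24285, 30532 and 29449.9 in Col-0. These 3 genes were apart in both pairs. They fell by 0.84 to 1.11 on the log2 scale in ceh1/eds16 against eds16 and by 0.89 to 1.08 in ceh1 against Col-0. PSBY (AT1G67740), a small membrane subunit, had 3092, 2645 and 2557 in ceh1, against 6009.9, 6937 and 6608 in Col-0. Without ICS1 the values were 2824, 2695 and 2708 in ceh1/eds16, against 8906, 11559 and 5403 in eds16. No library with the ceh1 mutation reached its partner group (log2 fold change -1.24 ± 0.19 SE, adjusted p = 5.57e-05, in the first; log2 fold change -1.58 ± 0.19 SE, adjusted p = 3.62e-06, in the second). Its coefficient of variation in eds16, 35.8%, was the widest of the 50 genes in that genotype.

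PSBR (AT1G79040), a subunit that helps the oxygen-evolving proteins to attach, had 13518, 12922 and 26663 in ceh1/eds16 against 15412, 16375 and 24005 in eds16, and 17851, 14100.0 and 9543 in ceh1 against 17276, 19743 and 18976 in Col-0. Its libraries overlapped in both comparisons. The log2 fold changes were -0.13 ± 0.26 SE in ceh1/eds16 against eds16 (adjusted p = 0.725) and -0.48 ± 0.26 SE in ceh1 against Col-0 (adjusted p = 0.136). Without ceh1/eds16 replicate 3 in the common fit the ceh1 value passed (-0.48, adjusted p = 0.0302). PSBS (AT1G44575), the sensor of lumen acidity in energy-dependent quenching, had 3647, 2975 and 3217 in ceh1, against 5715, 6393 and 6170.4 in Col-0. The counts in the eds16 background were 4080.1, 4658 and 5495 in ceh1/eds16, against 6519, 6209 and 6973 in eds16. The groups did not overlap in either pair (log2 fold change -0.90 ± 0.13 SE, adjusted p = 2.19e-05, in the first; log2 fold change -0.48 ± 0.13 SE, adjusted p = 0.00568, in the second). PSBX, another small membrane subunit, fell in ceh1 against Col-0 (log2 fold change -0.69 ± 0.24 SE, adjusted p = 0.0234), but not when ceh1 replicate 3 or any 1 of the Col-0 libraries was left out (log2 fold change -0.82 to -0.51, adjusted p up to 0.108), at equal library totals (-0.46, adjusted p = 0.0797) or without the trend in variance.

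All 12 photosystem I subunit genes fell in ceh1 against Col-0 (class median -0.95) and 11 in ceh1/eds16 against eds16 (-0.86). PSAF (AT1G31330), which helps plastocyanin to dock on the lumen side, had 15310.1, 17970.1 and 13344 in ceh1, against 38132, 38334 and 36706 in Col-0. Where ICS1 was lost it had 17318, 14940.5 and 24487 in ceh1/eds16, against 39208, 41794 and 37315 in eds16. All 3 libraries with the ceh1 mutation were the lower ones in each pair (log2 fold change -1.29 ± 0.17 SE, adjusted p = 1.05e-05, in the first; log2 fold change -1.09 ± 0.17 SE, adjusted p = 5.58e-05, in the second). PSAG (AT1G55670), a subunit at the antenna side of the complex, had 5464, 5391 and 10159 in ceh1/eds16 against 10896, 10138 and 13927 in eds16, and 5931, 6343 and 5246 in ceh1 against 12872, 13979.6 and 12792 in Col-0. Its ceh1 and Col-0 libraries were apart, while ceh1/eds16 replicate 3 was just above the lowest eds16 library. It fell in both (log2 fold change -1.18 ± 0.20 SE, adjusted p = 0.000116, in ceh1; log2 fold change -0.79 ± 0.20 SE, adjusted p = 0.00380, in ceh1/eds16). PSAD1 (AT4G02770), a gene of the stromal subunit where ferredoxin docks, had 8379, 8353 and 7702 in ceh1, against 16444, 18499 and 17994 in Col-0. On the eds16 background the gene had 8775, 8779 and 11784 in ceh1/eds16, against 17989, 15999 and 19049 in eds16. Both pairs were fully separated (log2 fold change -1.11 ± 0.14 SE, adjusted p = 4.76e-06, in the first; log2 fold change -0.86 ± 0.14 SE, adjusted p = 6.39e-05, in the second). Its sister PSAD2 had 5100.2, 5320.0 and 6374 in ceh1/eds16 against 14946, 13958 and 13785 in eds16, and 6839, 6198 and 5910.3 in ceh1 against 11662, 14108 and 13502 in Col-0, apart in both pairs. It fell by 1.35 in ceh1/eds16 and 1.05 in ceh1 on the log2 scale.

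PSAE2 (AT2G20260), for the other stromal docking subunit, was the least changed gene of photosystem I. It had 1546, 1414 and 2047 in ceh1/eds16 against 2233, 1905 and 1995 in eds16, and 1245, 1343 and 1106 in ceh1 against 1524, 1906 and 1818 in Col-0. All ceh1 libraries were below those of Col-0, and ceh1/eds16 overlapped eds16. It fell in ceh1 against Col-0 (log2 fold change -0.50 ± 0.14 SE, adjusted p = 0.00704), a call that was lost at equal library totals (-0.27, adjusted p = 0.0884). In ceh1/eds16 against eds16 the value was -0.31 ± 0.14 SE (adjusted p = 0.0899). Its sister PSAE1 had 5459, 6297 and 11169 in ceh1/eds16 against 15049, 11313 and 12979 in eds16, and 8413, 7895 and 7236 in ceh1 against 12699.9, 15819 and 14984 in Col-0, apart in both pairs, and fell by 0.84 in ceh1/eds16 and 0.88 in ceh1. PSAH1 had 960.4, 968 and 1217 in ceh1/eds16 against 1962, 1779 and 1891 in eds16, and 980.3, 986 and 956 in ceh1 against 1842, 2114 and 1734 in Col-0. PSAH2 had 3746, 3161 and 4348 in ceh1/eds16 against 8368, 9781 and 8948 in eds16, and 4728, 4519 and 3768 in ceh1 against 5782, 7298 and 7269 in Col-0. The PSAH genes were apart in both pairs as well. The subunits around the docking site of mobile antenna, PSAH1, PSAH2, PSAL and PSAO, fell by 0.44 to 1.28 in ceh1/eds16 against eds16 and by 0.64 to 0.96 in ceh1 against Col-0. Of these, PSAL lost its call in ceh1/eds16 (log2 fold change -0.44 ± 0.15 SE, adjusted p = 0.0318) when ceh1/eds16 replicate 1 or 2 or eds16 replicate 1 or 3 was left out (-0.60 to -0.34, adjusted p up to 0.128), at equal library totals (-0.32, adjusted p = 0.0728), without the filter on low values and in a fit of only the 2 groups. PSAK lost its call in ceh1 (log2 fold change -0.72 ± 0.22 SE, adjusted p = 0.0113) without ceh1 replicate 3 (adjusted p = 0.0561). PSAH1 and PSAH2 overlap counted neighbours by 788 and 174 bases, and reads there may be split. PSAE1 overlaps a counted neighbour by 9 bases, and its longer overlap and that of PSAG are with genes that were not counted. In other classes LHCA5, FNR1, LHCB3, LHCB1.3 and LHCB6 are among the genes that overlap counted neighbours, by 192, 191, 186, 108 and 103 bases.

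The electron carriers and ATP synthase were the most mixed class, with 6 of 8 genes lower in ceh1 against Col-0 (class median -0.89) and 5 of 8 in ceh1/eds16 against eds16 (-0.56). The ATP synthase genes of this class, ATPD and ATPC1, fell in each comparison. ATPD (AT4G09650), for the delta subunit, had 3813, 3927 and 3359 in ceh1, against 8562, 9348 and 8969.8 in Col-0. In the eds16 background it had 4343, 3693 and 5185 in ceh1/eds16, against 12163, 16374 and 9947 in eds16. Each set of libraries with the ceh1 mutation lay below its partner (log2 fold change -1.28 ± 0.16 SE, adjusted p = 7.56e-06, in the first; log2 fold change -1.52 ± 0.16 SE, adjusted p = 8.78e-07, in the second). ATPC1 (AT4G04640), for the gamma subunit that turns within the enzyme, had 5746, 6094 and 5699 in ceh1, against 13979, 12902 and 12121 in Col-0. Plants with eds16 gave 8301, 8260.0 and 9860.1 in ceh1/eds16, against 14063, 17078 and 13069 in eds16. In both pairs the groups were apart (log2 fold change -1.15 ± 0.13 SE, adjusted p = 1.93e-06, in the first; log2 fold change -0.74 ± 0.13 SE, adjusted p = 0.000185, in the second). FD2 (AT1G60950), the main leaf ferredoxin, had 6548, 6532 and 12891 in ceh1/eds16 against 14419.9, 17957 and 12752 in eds16, and 6625, 7213 and 6029 in ceh1 against 14116, 14677 and 13708 in Col-0. Its ceh1 libraries lay below Col-0, and ceh1/eds16 replicate 3 just reached the eds16 range. It fell in both (log2 fold change -1.10 ± 0.21 SE, adjusted p = 0.000351, in ceh1; log2 fold change -0.86 ± 0.21 SE, adjusted p = 0.00285, in ceh1/eds16).

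The plastocyanin genes differed from each other. PETE1 (AT1G76100), the minor gene, had 1045, 1068 and 1593 in ceh1/eds16 against 1587, 1423 and 1719 in eds16, and 1563, 1505 and 1358 in ceh1 against 1585, 1816 and 1754 in Col-0. The ceh1 libraries were all slightly below those of Col-0, and ceh1/eds16 replicate 3 lay inside the eds16 range. PETE1 did not pass in ceh1 (log2 fold change -0.22 ± 0.15 SE, adjusted p = 0.221). It passed at the edge in ceh1/eds16 (log2 fold change -0.38 ± 0.15 SE, adjusted p = 0.0472) and was lost there under 17 of 23 alternatives, edgeR and DESeq2 among them (adjusted p up to 0.191 with single libraries left out). PETE2 (AT1G20340), the main gene, had 5786, 5071 and 12323 in ceh1/eds16 against 10539, 15518 and 14402 in eds16, and 5508, 5243 and 3652 in ceh1 against 8787, 9335 and 9375 in Col-0. It fell in both (log2 fold change -0.96 ± 0.25 SE, adjusted p = 0.00504, in ceh1; log2 fold change -0.90 ± 0.25 SE, adjusted p = 0.00833, in ceh1/eds16), with ceh1/eds16 replicate 3 inside the eds16 range.

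PETC (AT4G03280), the Rieske iron-sulfur protein of the cytochrome b6f complex, had 7084, 7375 and 11154 in ceh1/eds16 against 9983, 10013 and 10278 in eds16, and 4850.0, 5269 and 4887 in ceh1 against 7975, 9521 and 9305 in Col-0. The ceh1 libraries were the lowest of all 12, and 1 ceh1/eds16 library was above all of eds16. PETC fell in ceh1 against Col-0 (log2 fold change -0.83 ± 0.15 SE, adjusted p = 0.000245), and ceh1/eds16 against eds16 gave -0.27 ± 0.15 SE (adjusted p = 0.160). FNR1 and FNR2 encode the leaf forms of FNR, which pass electrons from ferredoxin to NADP. FNR1 (AT5G66190) had 6329, 7511 and 10132 in ceh1/eds16 against 8802, 8225 and 8386 in eds16, and 5126, 4761 and 4967 in ceh1 against 7445, 8489 and 7802 in Col-0. FNR2 (AT1G20020) had 14368, 13248 and 15330.0 in ceh1/eds16 against 11051, 11060.4 and 12715 in eds16, and 7736, 8175 and 7448 in ceh1 against 8174, 10393 and 9956 in Col-0. For FNR1 the 3 ceh1 libraries were the lowest of all 12, and for FNR2 the 3 ceh1/eds16 libraries were above the other 9. FNR1 fell in ceh1 (log2 fold change -0.67 ± 0.14 SE, adjusted p = 0.00101) and gave -0.11 ± 0.14 SE in ceh1/eds16 against eds16 (adjusted p = 0.567). FNR2 passed in neither, at 0.30 ± 0.13 SE in ceh1/eds16 against eds16 (adjusted p = 0.0650) and -0.28 ± 0.13 SE in ceh1 against Col-0 (adjusted p = 0.0753). DESeq2 called it higher in the first (adjusted p = 0.0312) and lower in the second (adjusted p = 0.0290), and at equal library totals limma called it higher in the first (0.41, adjusted p = 0.00781). Without ceh1/eds16 replicate 3 in the common fit, limma called it lower in the second (-0.28 in ceh1 against Col-0, adjusted p = 0.0356).

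Whether the ceh1 mutation acted differently with and without ICS1 was tested as the log2 fold change in the eds16 background minus that in the Col-0 background. For 2 of the 50 genes the difference passed, both lower (limma; 4.87% of all tested genes passed, 1.79% lower and 3.08% higher), and at an unadjusted p under 0.05 it was 13 of 50 (21.8% of all genes). LHCB2.3 fell more in the eds16 background, by 1.05 ± 0.20 SE (adjusted p = 0.00523), the 1 gene of the 50 with a difference of at least 2-fold (1.17% of all genes). With each library left out in turn the difference was -1.21 to -0.96, with an adjusted p up to 0.0260. LHCB2.1 fell more as well, by 0.73 ± 0.19 SE (adjusted p = 0.0396). That call was lost under 12 of 22 alternatives, among them each left-out library other than ceh1/eds16 replicate 3, ceh1 replicate 3 and eds16 replicate 3 (-0.83 to -0.63, adjusted p up to 0.135). The third sister LHCB2.2 had -0.54 ± 0.18 SE (adjusted p = 0.1003).

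Without ceh1/eds16 replicate 3 the difference passed for 6 of the 50 genes, a smaller share than the 16.5% of all genes that passed in that fit. They were LHCB2.3, LHCB2.1, LHCB2.2 (-0.65, adjusted p = 0.00938), LHCB1.2 (-0.52, 0.0424), PSAH2 (-0.75, 0.00886) and, in the other direction, FNR2 (0.53, 0.0328). With all libraries PSAH2 had -0.63 ± 0.20 SE (adjusted p = 0.0808) and FNR2 0.58 ± 0.18 SE (adjusted p = 0.0708). By class, the median difference was -0.11 for the antenna of photosystem II, 0.17 for that of photosystem I, 0.07 for photosystem II, 0.07 for photosystem I and 0.33 for electron transport and ATP synthase, beside 0.02 for all genes. Over all genes the split of this test turned with the scaling: 327 were lower and 564 higher with the size factors, 586 lower and 328 higher at equal library totals, and 483 lower and 388 higher at equal upper quartiles. The LHCB2.3 and LHCB2.1 calls held under each of the 3.

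Loss of ICS1 in plants with the ceh1 mutation split the list. In ceh1/eds16 against ceh1, 6 genes fell, all in the photosystem II antenna, and 8 rose (limma; 4.24% of all tested genes fell, 5.93% rose and 10.2% were called in either direction). The largest falls were in LHCB2.3 (log2 fold change -1.13 ± 0.14 SE, adjusted p = 4.27e-05), LHCB2.1 (log2 fold change -1.03 ± 0.14 SE, adjusted p = 0.000101) and LHCB2.2 (log2 fold change -0.97 ± 0.13 SE, adjusted p = 0.000109), whose libraries were apart. LHCB2.3 and LHCB2.1 fell at least 2-fold (1.26% of all genes). LHCB1.1 (AT1G29920) had 15346, 15929.8 and 23038 in ceh1/eds16, against 29849, 28031 and 24124 in ceh1. Its libraries were apart (log2 fold change -0.61 ± 0.18 SE, adjusted p = 0.0345). LHCB3 (-0.51 ± 0.14 SE, adjusted p = 0.0264) and LHCB4.2 (-0.41 ± 0.12 SE, adjusted p = 0.0420) fell too. The calls of LHCB1.1, LHCB3 and LHCB4.2 were lost under 10, 8 and 12 of 23 alternatives, among them leaving out ceh1/eds16 replicate 1 or 2 or ceh1 replicate 1 or 2. With single libraries left out their log2 fold changes were -0.80 to -0.51, -0.60 to -0.46 and -0.46 to -0.37, with adjusted p up to 0.152, 0.115 and 0.184.

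The genes that rose were of several classes. FNR2 (log2 fold change 0.88 ± 0.13 SE, adjusted p = 0.000227), LHCA6 (log2 fold change 0.87 ± 0.15 SE, adjusted p = 0.000878), LHCB4.3 (log2 fold change 0.77 ± 0.17 SE, adjusted p = 0.00806) and PETC (log2 fold change 0.74 ± 0.15 SE, adjusted p = 0.00389) rose most. FNR1 (0.66, adjusted p = 0.00623), LHCA5 (0.63, 0.00173), ATPC1 (0.59, 0.00700) and PSBS (0.53, 0.0120) followed, the last not without ceh1 replicate 2 (adjusted p = 0.0779). A fit of only the 2 groups called fewer, 6 of the 50 genes higher and 3 lower (761 and 568 of the 18289 genes tested). Over the 50 genes the ceh1/eds16 libraries were all below those of ceh1 for 7 genes and all above for 13, beside 13.1% and 13.9% of all tested genes. None of the 12 photosystem I subunits passed in limma or edgeR, and DESeq2 called PSAE2 higher (0.44, adjusted p = 0.0344). At an unadjusted p under 0.05, 21 of the 50 genes passed (23.3% of all genes).

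The class medians of ceh1/eds16 against ceh1 were -0.41 for the antenna of photosystem II, 0.08 for that of photosystem I, 0.24 for photosystem II, 0.12 for photosystem I and 0.59 for electron transport and ATP synthase, beside -0.01 for all genes. Without ceh1/eds16 replicate 3 the count of calls was 21 of 50, while calls among all genes went up as well, to 17.8%. LHCB1.2, LHCB1.4, LHCB6, LHCA1, LHCA4, PSAE1 and PETE1 were then lower as well (-0.74 for LHCB1.2 to -0.42 for PSAE1, adjusted p up to 0.0379). At equal library totals 9 genes fell and 8 rose, and of all genes 1185 were lower and 739 higher, beside 776 lower and 1084 higher with the size factors. This comparison shares its ceh1/eds16 libraries with that against eds16, and its ceh1 libraries with that of ceh1 against Col-0.

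**Figure D3:**
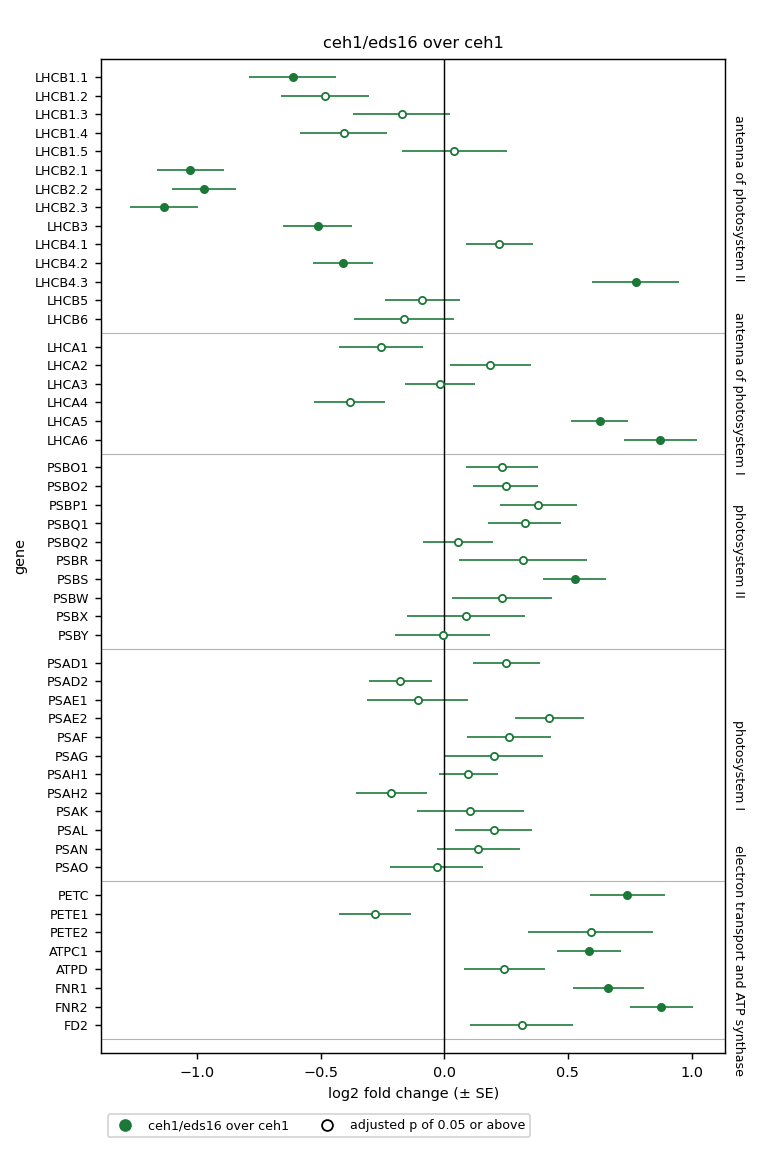
Log2 fold change of each gene in ceh1/eds16 over ceh1 (points, bars ± SE, from limma), by class, with open points where the adjusted p was 0.05 or above. The filled points left of 0 are the 6 antenna genes of photosystem II that fell, and 4 of the 8 filled points right of 0 (PETC, FNR1, FNR2 and ATPC1) are in the electron transport and ATP synthase class.

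Loss of ICS1 without the ceh1 mutation, eds16 against Col-0, called 0 of the 50 genes (limma; 4.60% of all tested genes were called, 2.96% lower and 1.63% higher). At an unadjusted p under 0.05 it was 10 of 50 (20.2% of all genes). edgeR called 0, and DESeq2 called LHCB2.2 lower (-0.43, adjusted p = 0.0149) and ATPD higher (0.52, adjusted p = 0.0456). Without ceh1/eds16 replicate 3 in the common fit 5 of the 50 passed, close to the share of all genes that did (9.73%): LHCB2.2 (-0.43, adjusted p = 0.0124), PSAH2 (0.42, 0.0300), PSAN (0.48, 0.0355), PETE2 (0.54, 0.0262) and ATPD (0.49, 0.0294). In the antenna of photosystem II 13 of 14 log2 fold changes were negative (median -0.23), and for 7 of the 14 all eds16 libraries were below all of Col-0. Negative values were fewer in the other classes: 2 of 6 in the antenna of photosystem I (0.02), 1 of 10 in photosystem II (0.18), 4 of 12 in photosystem I (0.07) and 1 of 8 in electron transport and ATP synthase (0.18), with a median of -0.02 for all genes. Over the whole list 8 genes were lower and 12 higher without overlap, beside 16.6% and 12.7% of all genes. Of all called genes 542 were lower and 299 higher with the size factors, and 412 lower and 381 higher at equal upper quartiles.

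The makeup of the list also differed between genotypes. Of the reads of the 50 genes, the antenna of photosystem II took 35.4 ± 1.66% in ceh1/eds16 against 39.3 ± 2.25% in eds16, and 42.3 ± 0.829% in ceh1 against 45.7 ± 0.908% in Col-0 (SD, n = 3 each). Electron transport and ATP synthase took 10.7 ± 0.259% in ceh1/eds16 against 7.76 ± 0.916% in eds16, and 7.09 ± 0.296% in ceh1 against 6.22 ± 0.265% in Col-0. For the first class the 3 ceh1/eds16 libraries were the lowest of all 12, and for the second they were the highest. Photosystem II subunits took 21.8 ± 0.732% against 19.9 ± 0.834% and 18.3 ± 0.678% against 17.2 ± 0.448% in the same pairs, photosystem I subunits 17.9 ± 0.968% against 17.4 ± 0.117% and 16.4 ± 0.795% against 15.7 ± 0.440%, and the antenna of photosystem I 14.2 ± 1.22% against 15.6 ± 0.856% and 15.9 ± 0.611% against 15.2 ± 0.207%.

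**Figure D4:**
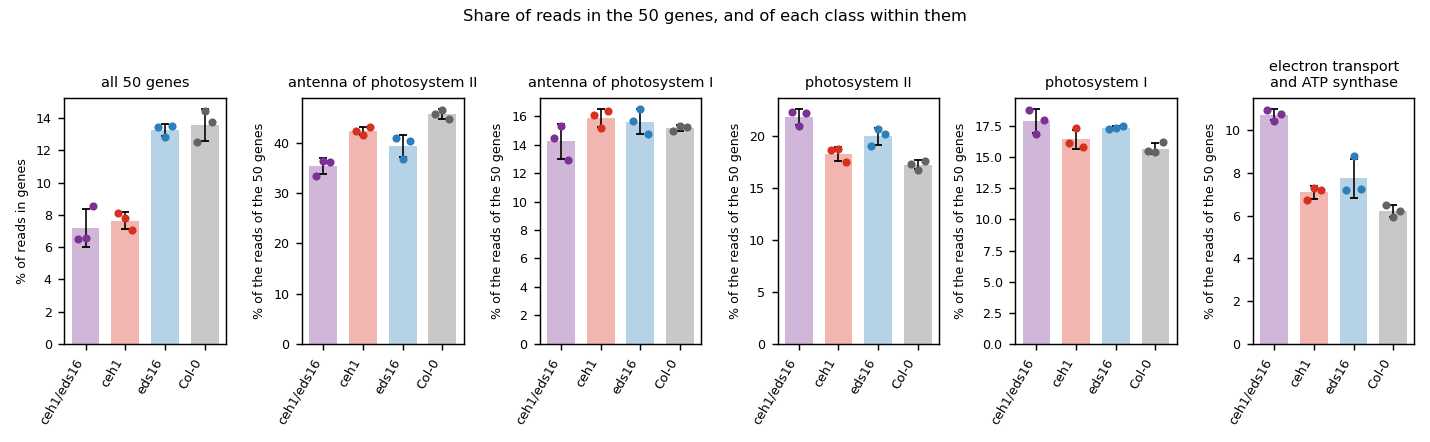
Share of all reads in genes taken by the 50 genes, and share of the reads of the 50 genes taken by each class (%), with 1 point a library, bars for the mean and error bars for the SD of 3 libraries. The total is lower in both genotypes with the ceh1 mutation, and within it ceh1/eds16 has the smallest share of photosystem II antenna and the largest of electron transport and ATP synthase.

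Levels were compared between genes as normalized counts per kilobase of annotated transcript. LHCB1.3 was highest in all 4 genotypes, at 38896 ± 12333 per kb in ceh1/eds16 against 62187 ± 1379.7 in eds16, and 42585 ± 4744 in ceh1 against 84260.0 ± 9429.8 in Col-0. LHCB4.3 was lowest in all 4, at 130.3 ± 32.8 per kb in ceh1/eds16 against 182 ± 10.6 in eds16, and 74.5 ± 7.03 in ceh1 against 154 ± 23.2 in Col-0. In this order LHCB2.1 had rank 38 of 50 in ceh1/eds16 against 24 in eds16, and 25 in ceh1 against 20 in Col-0. LHCB2.2 had rank 42 in ceh1/eds16 against 34 in eds16, and 28 in ceh1 against 24 in Col-0. FNR2 moved the other way, with rank 23 in ceh1/eds16 against 39 in eds16, and 35 in ceh1 against 39 in Col-0.

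Sister genes of the same subunit did not always keep their proportions. LHCB2.3 made up 4.86 ± 0.898% in ceh1/eds16 against 15.3 ± 1.91% in eds16, and 5.27 ± 0.542% in ceh1 against 12.9 ± 0.615% in Col-0 of the LHCB2 level per kb (SD, n = 3 each). Its share was at most 5.88% in the 6 libraries with the ceh1 mutation and at least 12.3% in the other 6. LHCB4.1 made up 63.3 ± 1.53% in ceh1/eds16 against 50 ± 0.891% in eds16, and 53.1 ± 1.88% in ceh1 against 48.1 ± 0.915% in Col-0 of the LHCB4 level. FNR2 made up 63.7 ± 4.69% in ceh1/eds16 against 57.0 ± 2.34% in eds16, and 60.3 ± 1.82% in ceh1 against 53.7 ± 1.93% in Col-0 of the FNR level. PETE1, against its sister PETE2, made up 18.1 ± 3.58% in ceh1/eds16 against 13.4 ± 2.84% in eds16, and 28.7 ± 3.17% in ceh1 against 19.4 ± 0.594% in Col-0 of plastocyanin. PSAE2 made up 23.1 ± 3.86% in ceh1/eds16 against 17.1 ± 0.933% in eds16, and 17.1 ± 1.05% in ceh1 against 13.7 ± 0.0659% in Col-0 of PSAE, and PSAD1 59.4 ± 1.38% in ceh1/eds16 against 51.1 ± 2.42% in eds16, and 52.1 ± 1.21% in ceh1 against 53.2 ± 0.949% in Col-0 of PSAD. Within LHCB1, whose genes may share reads, LHCB1.2 made up 10.5 ± 1.09% in ceh1/eds16 against 15.9 ± 0.375% in eds16, and 12.4 ± 0.498% in ceh1 against 14.4 ± 0.668% in Col-0 of the family level and LHCB1.5 30.9 ± 2.24% in ceh1/eds16 against 25.8 ± 1.29% in eds16, and 25.5 ± 1.104% in ceh1 against 25.5 ± 0.746% in Col-0. Ranges of genotype means were narrow in other families: PSBO1 was 80.4 to 82.5% of PSBO, PSBQ2 62.7 to 67.0% of PSBQ and PSAH2 86.8 to 89.9% of PSAH.

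**Figure D5:**
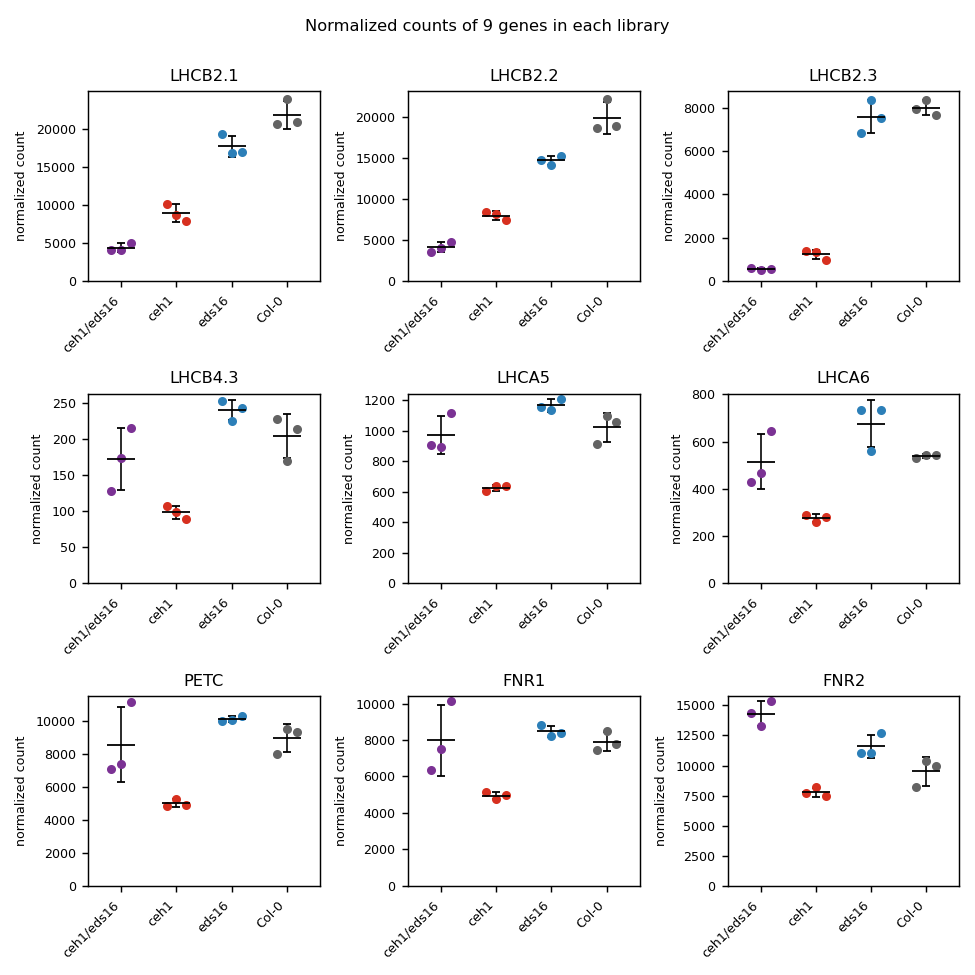
Normalized counts (from 0) of LHCB2.1, LHCB2.2, LHCB2.3, LHCB4.3, LHCA5, LHCA6, PETC, FNR1 and FNR2 in each library, with 1 point a library and the mean and SD of 3 libraries. The LHCB2 genes are lowest in ceh1/eds16, LHCB4.3, LHCA5, LHCA6, PETC and FNR1 are lowest in ceh1, and FNR2 is highest in ceh1/eds16.

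Other nuclear genes of the same processes were read from lists outside the 50. Of 8 further photosystem subunit and assembly genes, 8 fell in ceh1 against Col-0 and 5 in ceh1/eds16 against eds16, where 25.0% and 20.2% of all genes fell. The largest fall in ceh1 was in CURT1B, which curves the thylakoid membrane (-1.26; -1.31 in ceh1/eds16). Of the 4 genes for import and insertion of antenna proteins, 3 fell in each comparison, CPSRP43 (-0.88 in ceh1 and -0.98 in ceh1/eds16) among them, and FTSY did not pass (-0.23 and -0.15). In cyclic and alternative electron flow, 7 of 10 genes fell in ceh1 against Col-0 and 4 of 10 in ceh1/eds16 against eds16, beside the same 25.0% and 20.2% of all genes. There NDHL, of the NADH dehydrogenase-like complex, had -1.09 ± 0.14 SE in ceh1 (adjusted p = 8.83e-06) and -0.36 ± 0.14 SE in ceh1/eds16 (adjusted p = 0.05004). PTOX, the plastid terminal oxidase, did not pass (0.08 and 0.21).

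Among 11 other genes of ferredoxins, FNR and ATP synthase, 4 fell and 1 rose in ceh1 against Col-0, and 5 fell and 1 rose in ceh1/eds16 against eds16. Of all genes 25.0% fell and 25.2% rose in the first, and 20.2% and 22.1% in the second. TIC62, which tethers FNR to membranes, had the largest fall in ceh1 (-1.49, adjusted p = 4.51e-07; -1.50 and 3.06e-07 in ceh1/eds16). RFNR1, the FNR form of roots, rose in both (0.86, adjusted p = 5.41e-05; 0.49 and 0.00621 in ceh1/eds16). Of 8 tested LHC-like proteins 3 fell in each comparison, beside 25.0% and 20.2% of all genes, with LIL3:2 (-0.66) the largest fall in ceh1 and SEP2 the highest value there (0.14, adjusted p = 0.578). The kinases STN7 and STN8, which phosphorylate antenna and photosystem II core proteins, fell in both (-0.75 and -1.36 in ceh1; -0.57 and -0.47 in ceh1/eds16). TAP38, the phosphatase that opposes STN7, had 0.13 in ceh1 against Col-0 (adjusted p = 0.353) and rose by 0.44 in ceh1/eds16 against eds16 (adjusted p = 0.00565).

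The 50 genes shared much of their difference between replicates. In Col-0, replicate 2 had the highest value for 44 genes and replicate 1 the lowest for 41. In ceh1, replicate 3 was lowest for 42 genes. In eds16 the 3 replicates were highest for 16, 15 and 19 genes. The median coefficient of variation of the 50 genes was 18.9% in ceh1/eds16 against 9.11% in eds16, and 8.08% in ceh1 against 8.64% in Col-0. The widest was 51.7%, for PETE2 in ceh1/eds16.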

How the data were processed

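Poly(A) RNA of 3-week-old rosettes was sequenced in 12 libraries, 3 biological replicates of each of 4 genotypes. The deposited values are a normalized signal per gene: per the submitters' processing notes, which name TopHat2, DESeq2 and TAIR10, reads were aligned and read counts scaled with DESeq2, and 100% of the values are whole multiples, within 0.01, of 1 step per library. The sources used here name no versions, counter or strand setting. Of 33602 genes, 18289 with a mean of at least 10 normalized counts were tested. limma 3.58.1 (R 4.3.3, trend) was fitted to log2(normalized count + 1) over all 4 genotypes, so fold changes understate low genes, with 5 comparisons and Benjamini-Hochberg adjustment over all tested genes. Alternatives were edgeR 4.0.16 and DESeq2 1.42.0 on the recovered reads, other pseudocounts, filters and scalings, a fit of only the groups compared, a replicate block, and each library left out. Only the limma fit was checked on simulated data, with the same spread in every library. The check covered ceh1 against Col-0 with known changes and eds16 against Col-0 with none. The other comparisons, edgeR and DESeq2 were not checked in this way.

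The 50 genes and the other lists were chosen with earlier results of these data known. Values in every library are given for the 3 largest falls and the least changed gene of each class in ceh1 against Col-0, the leading calls of the other comparisons, and sister genes. For LHCB1.1 they are given only in ceh1/eds16 and ceh1. In other gene lists the largest fall and the largest rise, or least fall, in ceh1 against Col-0 are named. Outside these rules, LHCB5, LHCB6, LHCA4, PSBS, PSBX, PSAK, PSAL, PSAN, PSAO and STN7 were named after their values were seen. Annotation and promoters came from RefSeq TAIR10.1, which holds 32835 of the 33602 loci.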

Additional observations from a re-analysis of the deposited data

Results flagged for a closer look

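The ceh1 effect differed between the backgrounds, by the test of the difference itself, for 2 of the 50 genes, both of the antenna of photosystem II (4.87% of all tested genes passed that test, a larger share). For LHCB2.3 the log2 fold change in ceh1/eds16 over eds16 minus that in ceh1 over Col-0 was -1.05, and for LHCB2.1 it was -0.73. The LHCB2.3 difference passed under each of the 22 alternatives, and that of LHCB2.1 was lost under 12 of them.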

How the results depend on the processing

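In ceh1 against Col-0 the 50 genes gave 45 to 49 calls and in ceh1/eds16 against eds16 39 to 48 over all alternatives, with each library left out or not. No call changed direction. Over single genes and alternatives, 96 calls were lost, 56 gained and 5548 stayed as they were. At equal library totals, chosen after seeing the data, class medians in ceh1 against Col-0 were -1.06 and -0.74 for the antennae of photosystems II and I, -0.72 for photosystem I and -0.66 for electron transport and ATP synthase, which follows from the shift of all genes under that scaling. For the difference between backgrounds, 593 genes passed without the filter, 554 without the trend and 566 with the replicate block, and 1 of the 50 under each. Equal totals gave 4 of the 50, beside 914 of all 18294 genes tested. DESeq2 gave 5 of the 50, beside 1313 of 18289. In eds16 against Col-0, 512 genes passed without the trend, 538 with the block and 1513 in a fit of only the 2 groups, which called 5 of the 50. Equal totals gave 1 of the 50, beside 767 of all 18294 genes tested. DESeq2 gave 2 of the 50, beside 965 of 18289. In ceh1/eds16 against ceh1, a fit of only the 2 groups called 9 of the 50, beside 1329 of all 18289 genes tested. The cause of these changes was not tested.

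With 1 library left out, the genes called were 7376 to 10326 in ceh1 against Col-0, 6513 to 7987 in ceh1/eds16 against eds16, 347 (without ceh1 replicate 1) to 3012 for the difference between backgrounds, 238 (without Col-0 replicate 2) to 1780 in eds16 against Col-0, and 1017 (without ceh1 replicate 1) to 3248 in ceh1/eds16 against ceh1, each highest without ceh1/eds16 replicate 3. Of the 50 genes, 1 to 6, 0 to 5 and 10 to 21 passed in the last 3, again with the most calls without that library.

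Replicate numbers are not shown to pair the libraries: deviations of same-numbered libraries correlated by -0.448 to 0.118 over 18 pairs, with 1 above 0.1. With the replicate block the calls of PSAL and PETE1 in ceh1/eds16 against eds16, of LHCB1.1, LHCB3 and LHCB4.2 in ceh1/eds16 against ceh1, and of the LHCB2.1 difference were lost.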
